A study of Arabidopsis thaliana and Zea mays subsp. mays with 14 samples.

Results

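The actin gene family of Arabidopsis thaliana was examined for open chromatin at its gene ends. The 8 genes were taken by locus, 8 of 27444 protein-coding genes on the nuclear chromosomes. They are the vegetative genes ACT2 (AT3G18780), ACT7 (AT5G09810) and ACT8 (AT1G49240), and the reproductive genes ACT1 (AT2G37620), ACT3 (AT3G53750), ACT4 (AT5G59370), ACT11 (AT3G12110) and ACT12 (AT3G46520). The assay was ATAC-seq, where Tn5 transposase cuts open DNA and joins sequencing adapters to it, and the 10 libraries used here formed 5 groups of 2. The groups were 50000 sorted root nuclei of the wild-type accession Col-0, 500 sorted nuclei of Col-0 whole seedlings, 50000 Col-0 seedling nuclei labelled as crude, 50000 seedling nuclei of a 35S:H2AX-GFP line in the Col-0 background, and 50000 sorted nuclei of Col-0 whole seedlings, all from plants 7 days old. The transgene makes a fluorescent fusion of the histone variant H2AX from the viral 35S promoter, and nothing in the labels says how many lines it stands for. The labels give the same protocol, sorting included, for all samples, and the preparation of the crude nuclei is not described further.

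Actin monomers assemble into filaments that carry organelles along the cell and shape the growing wall, in root hairs and pollen tubes above all. Flowering plants keep separate actin genes for the plant body and for pollen and ovules, and the names of the classes come from where the RNA and protein accumulate. ACT2 and ACT8 are the common actins of leaves, stems and roots, ACT2 being needed for root hair growth, and ACT7 is the actin of young, dividing and hormone-treated tissue. ACT1, ACT3, ACT4 and ACT12 are known from mature pollen, and ACT11 from pollen and ovules. None of the groups was a flower or pollen sample.

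The value per gene and library is the number of bases covered by the authors' called regions in windows that reach from 1000 bp beyond each gene end to 200 bp within the gene, so each gene has the same maximum of 2400 bases, 1200 at each end. The gene table gives no strand, so the ends are called lower and higher by coordinate, and which is the promoter is not stated. The region lists carry no read counts, so the depth is unknown, and covered length stands for how far openness was called and not for how strong it was. Nuclei of a whole organ were pooled, so a region open in fewer nuclei and a region less open in each nucleus cannot be told apart. Whether the 2 libraries of a group are separate cultures is not stated, so every p-value rests on a spread between libraries that may be technical. Where the libraries of groups are said not to overlap, the share of all genes that do the same was not counted.

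ACT2 was widely covered in every library. It had 2064 and 2076 covered bases in roots, 1840 and 1745 with 500 nuclei, 2050 and 1667 in crude nuclei, 2073 and 2034 in H2AX-GFP seedlings, and 2059 and 2041 in sorted seedlings. Among all genes it stood between percentiles 93.8 and 99.5 of its library (median 96.9). ACT8 had 2199 and 1997 covered bases in roots, 1511 and 1969 with 500 nuclei, 1556 and 1647 in crude nuclei, 2005 and 2347 in H2AX-GFP seedlings, and 2084 and 2347 in sorted seedlings. Both crude libraries and both 500-nuclei libraries lay below both sorted seedling libraries, whereas the root and H2AX-GFP values overlapped them. By the sign of the mean difference alone, most genes went the same way. Of 23893 tested genes, 22801 had a lower mean with 500 nuclei than in sorted seedlings, and 17320 in crude nuclei. The percentile of ACT8 was 93.5 to 98.6. It was 94.5 and 98.6 with 500 nuclei, 96.5 and 93.5 in crude nuclei, and 97.6 and 98.6 in sorted seedlings.

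ACT7 had the widest gap between libraries of a group among the vegetative genes, in roots. It had 1977 and 618 covered bases in roots, 1504 and 1019 with 500 nuclei, 1382 and 1619 in crude nuclei, 1850 and 1144 in H2AX-GFP seedlings, and 1879 and 2063 in sorted seedlings. The widest gaps within a group, in roots, 500 nuclei and H2AX-GFP seedlings, lay mostly at its higher end, which had 1200 and 0 bases in roots, 879 and 482 with 500 nuclei, 845 and 913 in crude nuclei, 1200 and 518 in H2AX-GFP seedlings, and 1200 in both sorted seedling libraries. Root replicate 2 was the only library with no covered base there. The lower end of ACT7 was covered by 537 to 863 bases in every library, and there lay the larger gap within crude nuclei (537 and 706) and sorted seedlings (679 and 863).

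Among the reproductive genes, ACT11 and ACT12 were widely covered, although no sample held flowers. ACT11 had 1341 and 1022 covered bases in roots, 1092 and 1006 with 500 nuclei, 1503 and 1360 in crude nuclei, 1431 and 1163 in H2AX-GFP seedlings, and 1292 and 1116 in sorted seedlings. In covered bases the 500-nuclei pair lay below both sorted seedling libraries and the crude pair above them. By percentile among all genes of the library, the order was another, with 82.1 and 80.3 in roots, 83.4 in both 500-nuclei libraries, 95.8 and 86.8 in crude nuclei, 80.8 and 72.8 in H2AX-GFP seedlings, and 79.8 and 72.7 in sorted seedlings. ACT12 had 1112 and 1093 covered bases in roots, 732 and 698 with 500 nuclei, 928 and 1109 in crude nuclei, 1178 and 2400 in H2AX-GFP seedlings, and 1129 and 1039 in sorted seedlings. H2AX-GFP replicate 2 reached the maximum, and the 500-nuclei libraries were the lowest. The percentile of ACT12 among all genes was 66.0 to 99.0 (median 71.2).

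ACT3, ACT1 and ACT4 had little covered sequence. ACT3 had 567 and 481 covered bases in roots, 489 and 437 with 500 nuclei, 659 and 580 in crude nuclei, 612 and 561 in H2AX-GFP seedlings, and 579 and 584 in sorted seedlings. ACT1 had 486 and 170 covered bases in roots, 440 and 176 with 500 nuclei, 222 and 531 in crude nuclei, 523 and 317 in H2AX-GFP seedlings, and 506 and 468 in sorted seedlings. Both genes were covered in 10 of 10 libraries, at percentiles of 37.9 to 67.9 for ACT3 (median 47.8), near the middle of all genes, and of 31.4 to 46.4 for ACT1 (median 35.5). ACT4 had 346 and 0 covered bases in roots, 0 in both 500-nuclei libraries, 0 and 381 in crude nuclei, 0 and 339 in H2AX-GFP seedlings, and 313 and 0 in sorted seedlings. It was covered in 4 of 10 libraries, and no group had it in both.

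**Figure D1:**
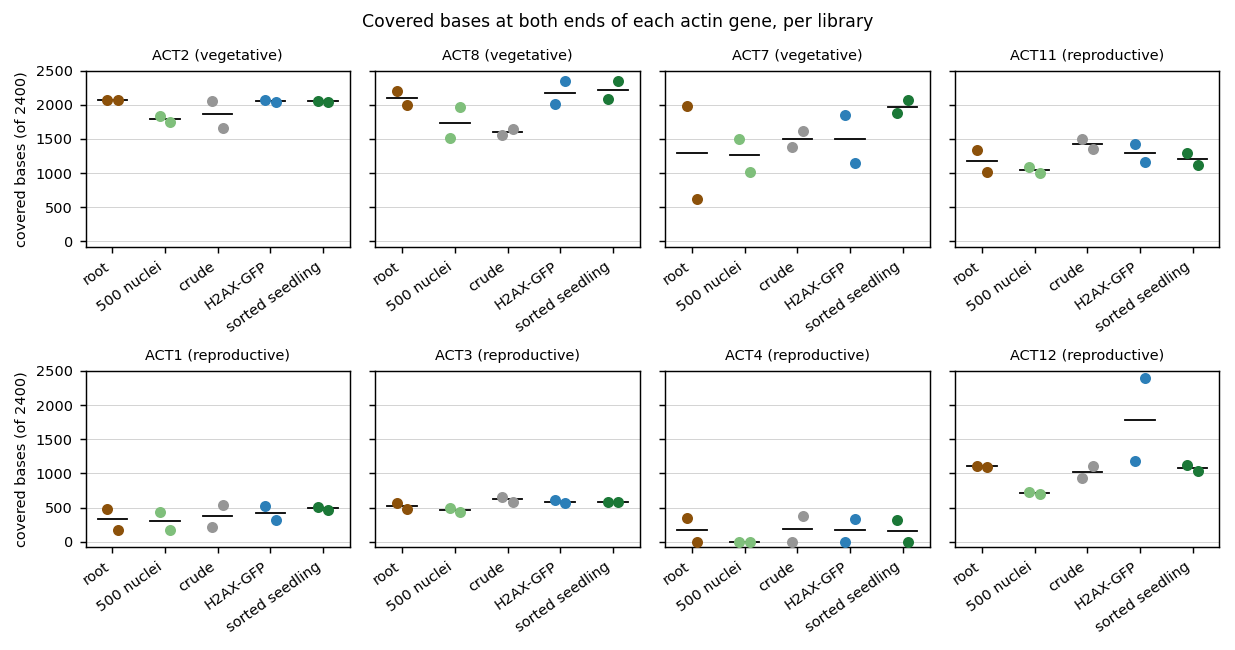
Covered bases at both ends of each actin gene (y axis, of 2400) by group (x axis). Each point is a library and each bar the mean of the 2 libraries of a group; the ACT12 point at 2400 is H2AX-GFP replicate 2, and the low ACT7 point in roots, at 618, is root replicate 2.

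Over the 10 libraries the genes fell in the order ACT8 (1966.2 ± 305.1 covered bases), ACT2 (1964.9 ± 153.9), ACT7 (1505.5 ± 468.4), ACT11 (1232.6 ± 175.7), ACT12 (1141.8 ± 472.6), ACT3 (554.9 ± 66.7), ACT1 (383.9 ± 147.6) and ACT4 (137.9 ± 178.8; SD, n = 10 libraries each). The neighbours ACT8 and ACT2, ACT2 and ACT7, ACT7 and ACT11, and ACT11 and ACT12 differed by less than the larger of their SDs. The steps from ACT12 to ACT3, from ACT3 to ACT1 and from ACT1 to ACT4 exceeded both SDs.

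Taken as classes, the 3 vegetative genes had 1.93 to 3.4 times the mean covered bases of the 5 reproductive genes, with a median of 2.67 over the libraries. Against the mean of all genes of the same library, the vegetative mean was 2.28 to 3.34 times as high and the reproductive mean 0.86 to 1.33 times. In 7 of 10 libraries every vegetative gene lay above every reproductive gene. The exceptions were root replicate 2, where ACT7 lay below ACT12 and ACT11, crude replicate 1, where ACT7 with 1382 bases lay below ACT11 with 1503, and H2AX-GFP replicate 2, where ACT12 was the highest of the 8. The separation lay at the higher end, a name by coordinate, which can be the promoter in some genes and not in others. At the lower end alone the ratio of class means was 1.47 to 1.9 and the classes overlapped in all 10 libraries. At the higher end alone the ratio was 2.22 to 15.79. There the classes overlapped in root replicate 2, crude replicate 2 and H2AX-GFP replicate 2. With the better-scoring 50% of the regions of each library, the classes were separate in 3 libraries. These are descriptions of 8 chosen genes, with no test.

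The positions of the regions showed the difference in shape. Joined over the libraries, the regions at ACT2 spanned chr3:6472221-6475421 at its lower end and chr3:6476430-6477880 at its higher end (TAIR10, per the submitters' processing notes, as are the coordinates that follow). Those at ACT8 spanned chr1:18214853-18216806 and chr1:18217350-18219523. At ACT8 both end bases lay inside a called region in 10 of 10 libraries, and these regions stood between percentiles 90.1 and 98.6 of the authors' region score within their library. The score comes from the authors without a definition and was used for such ranks only. At ACT2 the lower end base was inside a region in 10 libraries and the higher one in 8. ACT7 had its lower end base inside a region in 10 libraries (chr5:3051485-3052351) and its higher one in 4, although a region touched the window at that end in 9 (chr5:3054205-3055937).

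Of the reproductive genes, ACT11 alone had both end bases inside regions in 10 of 10 libraries, as ACT8 did among the vegetative genes. These regions lay in chr3:3856994-3858044 and chr3:3859497-3860506. Of all 27444 genes, 4.6% had both ends inside regions in all 10 libraries. The lower region of ACT11 ranked at score percentiles 84.9 to 93.1 and the higher one at 30.3 to 73.5.

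At ACT3 and ACT1 the coverage lay at the lower end alone. The lower end base of ACT3 was inside a region in 10 libraries (chr3:19914706-19915480, score percentile 71.1 to 85.2) and that of ACT1 in 8 (chr2:15778610-15779297, score percentile 14.4 to 55.2). The higher end base was inside a region in 0 of 10 libraries for either gene. In the 2 libraries without the lower end base of ACT1, root replicate 2 and 500-nuclei replicate 2, a region of at most 176 bases lay just outside it. A pattern of an end inside a region in all 10 libraries and the other in none was found for 13.6% of all genes.

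At ACT4 neither end base lay inside a region in any library, as was the case for 23.0% of all genes. Its only covered stretch, chr5:23951953-23952467, lay at or just inside the nearer end of MBD6, a gene for a methyl-CpG-binding domain protein 294 bp away, in a window both genes share. In the 4 libraries that had a region there, it ranked at score percentiles 1.5 to 18.2.

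**Figure D2:**
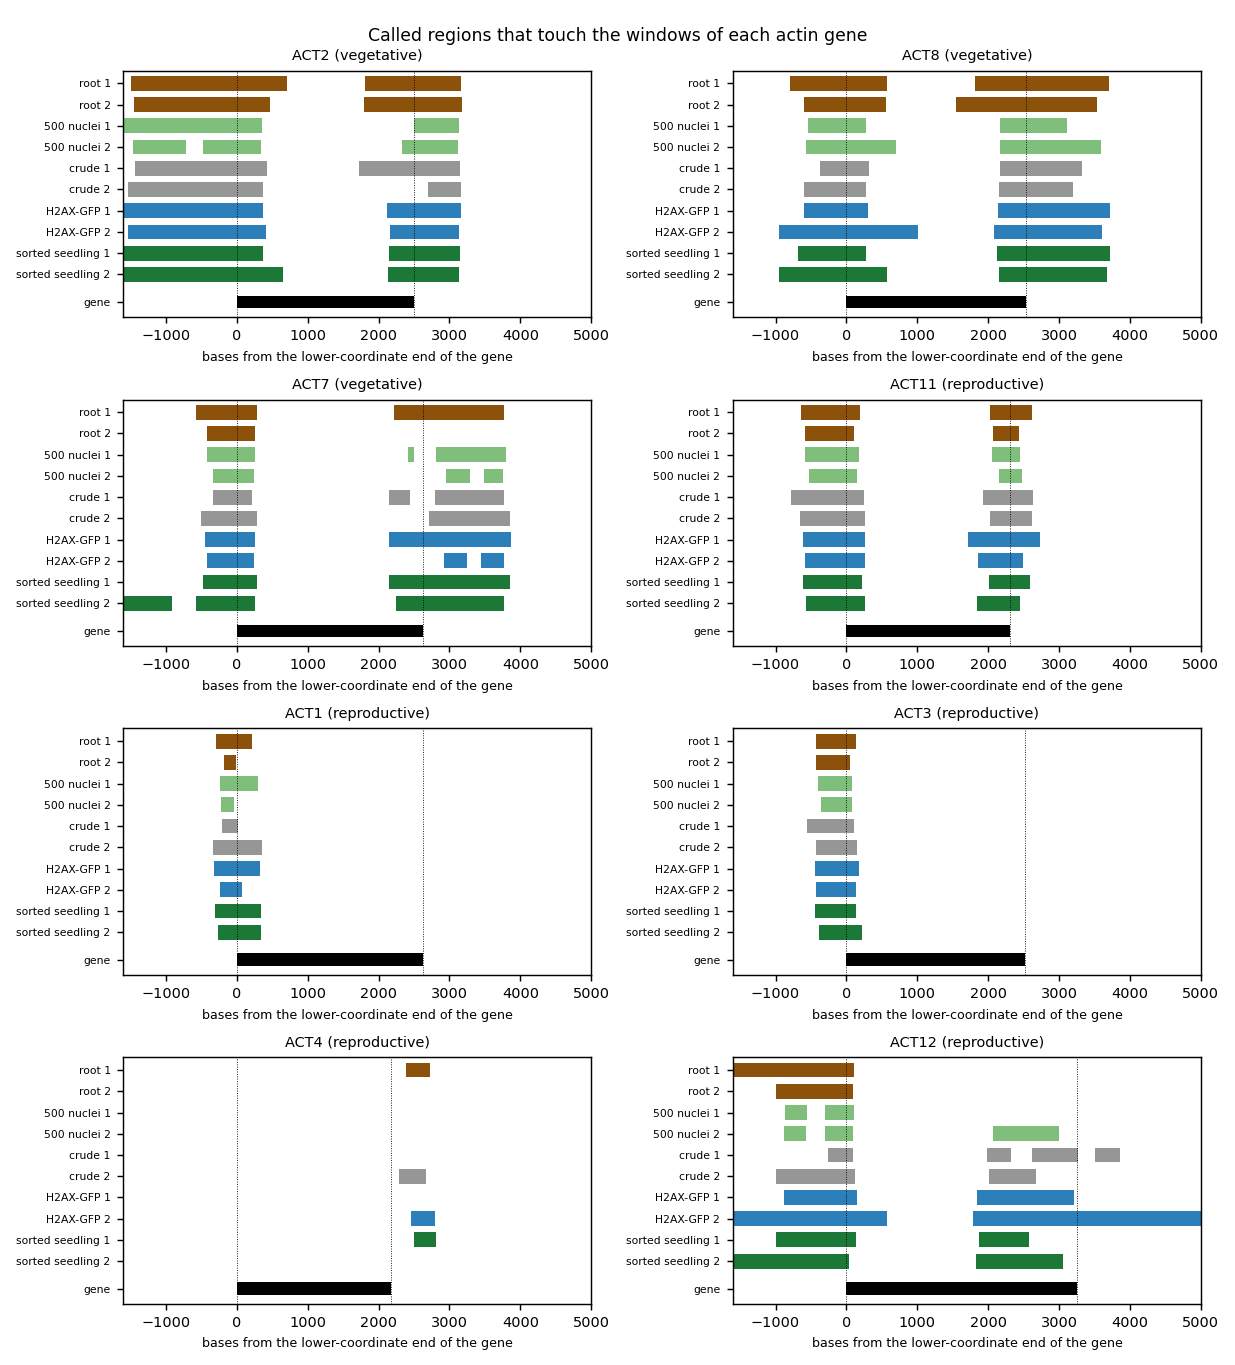
Called regions that touch the windows of each actin gene, by library (rows), in bases from the lower-coordinate end of the gene (x axis); the black bar is the annotated gene and dotted lines mark its ends. Regions that run past the edges of the axis are cut there, as for the 9686-base region of H2AX-GFP replicate 2 at ACT12, and ACT1 and ACT3 have regions at their lower end alone.

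Several of these ends face another gene, and a region there lies in the windows of both. ACT8 ends 1 bp from AT1G49245 at its higher end, ACT2 456 bp from AT3G18790, and ACT7 926 bp from AT5G09820. ACT11 lies 161 bp from FAD2, an oleate desaturase of membrane lipids, at its higher end and 460 bp from AT3G12100 at its lower end. The covered lower end of ACT3 lies 190 bp from AT3G53740, with 590 bases in both windows. That of ACT12 lies 1313 bp from PUB13, with 687 bases in both windows. In root replicate 1, H2AX-GFP replicate 2 and sorted seedling replicate 2, the region at this end of ACT12 reached past that distance. At their higher ends, with 0 covered bases in all 10 libraries, ACT1 overlaps AS1, a regulator of leaf shape, by 330 bp and ACT3 lies 12 bp from GCP4, a subunit of the complex that starts microtubules. In root replicate 2, AT5G09820 had 0 covered bases as well, against 1200 in root replicate 1 and 1200 and 1447 in the sorted seedlings. Which gene of a pair such a region belongs to was not tested.

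Roots were set against sorted seedlings with limma over all tested genes. Whole seedlings include roots, so this compares a part with a whole and not separate tissues. All 8 actin genes passed the filter of a covered base in at least 2 libraries, and 0 of them passed an adjusted p of 0.05, the threshold of a call (0 with an unadjusted p under 0.05). In that comparison 0.682% of the 23893 tested genes were called, 25 higher and 138 lower in roots. After quantile normalization 119 were higher and 160 lower, and after dividing by covered length 24 were higher and 22 lower. The difference of ACT2 was 20 covered bases (95% confidence interval -366.8 to 406.8), that of ACT8 -117.5 (-622.2 to 387.2) and that of ACT11 -22.5 (-443.6 to 398.6). These intervals leave room for differences of either sign. The largest difference was that of ACT7, with 1297.5 ± 961.0 covered bases in roots and 1971.0 ± 130.1 in sorted seedlings (SD, n = 2 each), a difference of -673.5 bases (SE 446.1, limma adjusted p = 0.756). Without root replicate 2 it was 6.0 and without root replicate 1 -1353.0, so a single library set its size.

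Against the mean of the 4 seedling groups, 0 of 8 actin genes were called (0 with an unadjusted p under 0.05), where 2.01% of all tested genes were, 144 higher and 337 lower. Scaled by quantiles, 537 were higher and 538 lower, and scaled by covered length 404 were higher and 431 lower. The differences ran from -260.0 bases for ACT7 to 164.8 for ACT8, and their median was -43.8, against -26.3 over all tested genes. The limma adjusted p lay between 0.764 and 0.968. This comparison shares the root and sorted seedling libraries with the one before.

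The tissue labels were checked on marker genes. Of 6 leaf markers, 3 fell in roots against sorted seedlings (the antenna gene LHCB2.2, the photosystem I gene PSAL and the chloroplast regulator GLK1) and 4, with LHCB1.3, against the 4 seedling groups. Without any 1 of the root or sorted seedling libraries, no gene was called lower than in sorted seedlings, these 3 included, and without root replicate 1 none was called against the 4 groups (limma). Of 8 root markers 7 were tested and 0 called. Against sorted seedlings, 5 of the 7 differences were positive and 2 negative, those of SCR (-296 bases, SE 198) and WOX5 (-28.5, SE 107.6). The largest was that of IRT1, the iron transporter of the root epidermis. It had 1914 and 955 covered bases in roots, against 333 and 273 in sorted seedlings (limma adjusted p = 0.166). PLT1, the marker not tested, had 0 covered bases in all 10 libraries. Of 14 pollen markers 11 were tested and 0 called. VGD1, a pectin methylesterase of the pollen tube, and MYB97, a regulator of its growth, had 0 covered bases in all 10 libraries. These 2 made up 14.3% of the list, and 10.3% of all genes were likewise covered in no library. HAP2, MGH3, SPIK and MYB120 were covered in all 10 libraries, which was 28.6% of the list against 59.4% of all genes. The pollen markers had a mean of 207.4 to 280.0 covered bases per library in roots and 131.9 to 447.6 in seedlings, against 553.2 to 770.4 and 463.4 to 956.0 for the 5 reproductive actin genes.

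With 500 instead of 50000 sorted nuclei, the difference was negative for all 8 actin genes and 0 were called (limma, 0 with an unadjusted p under 0.05). The differences ran from -709.5 for ACT7 to -118.5 for ACT3, with a median of -218.2. This was the change of the genome at large, where the median was -211.5 and 22801 of 23893 tested genes had a negative difference. No gene was called, a share of 0.0%, and 1778 had an unadjusted p under 0.05. ACT12 had 715.0 ± 24.0 covered bases with 500 nuclei and 1084.0 ± 63.6 with 50000 (SD, n = 2 each). These means lay farther apart than either SD, but the gene was not called (difference -369, SE 346.1, limma adjusted p = 0.679). After quantile normalization or division by covered length, 4 of the 8 differences each turned positive, so the shared direction held for covered bases as called and not after scaling.

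Crude nuclei were compared with sorted ones at 50000 nuclei each. ACT8 had 1601.5 ± 64.3 covered bases in crude nuclei and 2215.5 ± 186.0 in sorted nuclei (SD, n = 2 each). The difference of -614 bases (SE 215.7) had an unadjusted p of 0.0235 from limma and an adjusted p of 0.46, so it was not called. The difference was -291.4 after quantile normalization, -60.5 after division by covered length, -64 with the 500 bp window and -141.5 within the gene span (limma adjusted p 0.629, 0.97, 0.753 and 0.954). It was -777 with the 2000 bp window and -614 with the better-scoring 50% of regions (limma adjusted p 0.51 and 0.455). With a library left out it ran from -745.5 to -482.5. ACT8 was the only one of the 8 under 0.05 before adjustment, 0 of 8 were called, and of all genes 0.0% were, with 2264 under 0.05 unadjusted. The vegetative genes had differences of -191.5 (ACT2), -470.5 (ACT7) and -614 (ACT8). The reproductive genes went both ways. ACT11 had 227.5 (SE 180.5), ACT3 38 (SE 107.2) and ACT4 34 (SE 191.8), while ACT1 had -110.5 (SE 169.8) and ACT12 -65.5 (SE 346.1). After quantile normalization and after division by covered length ACT11 had 527.1 and 661.2 (limma unadjusted p 0.0232 and 0.0251, adjusted p 0.513 and 0.638). The median over the 8 was -88.0, against -138 over all tested genes.

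In H2AX-GFP seedlings 0 of 8 actin genes were called against the wild type, as were 0.0% of all genes (limma, 759 genes and 0 actin genes with an unadjusted p under 0.05). ACT2 had 2053.5 ± 27.6 covered bases in H2AX-GFP seedlings and 2050.0 ± 12.7 in wild-type seedlings, and ACT3 586.5 ± 36.1 and 581.5 ± 3.5 (SD, n = 2 each). ACT7 had 1497.0 ± 499.2 and 1971.0 ± 130.1, a difference of -474 bases (SE 446.1). The difference of ACT12 was 705 bases (SE 346.1, interval -105 to 1515, limma adjusted p = 1). A single library set its size. Without H2AX-GFP replicate 1 it was 1316.0 and without replicate 2 it was 94.0. Either fit leaves a single H2AX-GFP library, which is assumed to vary like the other groups.

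**Figure D3:**
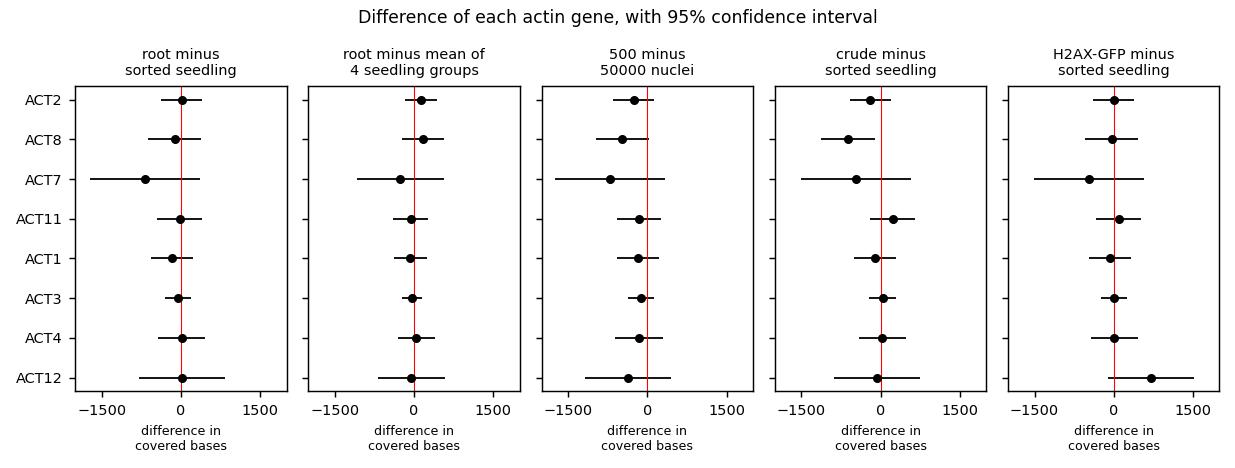
Difference in covered bases of each actin gene (x axis) in the 5 comparisons, as fitted by limma. Points are estimates and bars 95% confidence intervals; the interval of ACT8 in crude against sorted seedling nuclei, -1118.7 to -109.3, is the only one that leaves out 0, and it was not called after adjustment.

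The annotated span of ACT12 overlaps that of RPP13, a disease resistance gene against downy mildew, by 1167 bases at the higher end. This shared stretch had 0 covered bases in both root libraries, 0 and 908 with 500 nuclei, 866 and 584 in crude nuclei, 1121 and 1167 in H2AX-GFP seedlings, and 492 and 967 in sorted seedlings. Both root libraries and 500-nuclei replicate 1 were thus empty where the other 7 libraries were covered.

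Within the whole annotated span of ACT12, the covered bases were 112 and 94 in roots, 112 and 1015 with 500 nuclei, 1074 and 780 in crude nuclei, 1506 and 2048 in H2AX-GFP seedlings, and 852 and 1270 in sorted seedlings. The root values were at or below every seedling value, with a tie at 112. By this measure, chosen after the data had been seen, ACT12 differed by -979.1 bases from the 4 seedling groups (SE 264.6, limma unadjusted p = 0.00801, adjusted p = 0.137), which was not called. The window at both ends, which leaves out most of that stretch, gave -49.1 bases. By the span measure ACT2 was 576.6 bases higher in roots (limma unadjusted p = 0.0322, adjusted p = 0.282). ACT8 was 566.3 higher (limma unadjusted p = 0.0392, adjusted p = 0.311), and neither was called. ACT7 differed by 8.4, and ACT1, ACT3 and ACT11 by -114.4, -44.5 and -179.6.

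RPP13 itself had 0 and 611 covered bases in roots, 807 and 1416 with 500 nuclei, 1510 and 1302 in crude nuclei, 1642 and 1706 in H2AX-GFP seedlings, and 1625 and 1664 in sorted seedlings. Both root libraries lay below all 8 seedling libraries, a separation whose share among all genes was not counted. Of the 13 genes that neighbour the actin genes RPP13 was the one called, lower in roots than in the 4 seedling groups (difference -1153.5 bases, SE 209.5, limma adjusted p = 0.043). It was not called against sorted seedlings alone (-1339, limma adjusted p = 0.0882). Against the 4 groups it was still called after quantile normalization (-1052.7, limma adjusted p = 0.0478) and with the better-scoring 50% of regions (-1173.3, limma adjusted p = 0.0204). The call against 4 groups was lost without each of the 10 libraries in turn (-1459.0 to -848.0, limma adjusted p 0.0557 to 0.292), and also with the 500 bp and 2000 bp windows, with division by covered length and without the filter (limma adjusted p 0.0638 to 0.0973), and by either end alone or the gene span (0.0582 to 0.255).

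H2AX-GFP replicate 2 had the widest region of the family. It ran over chr3:17129994-17139679, 9686 bases, at score percentile 99.6 of its library, covered all 3163 bases of the RPP13 span and took in the higher end of ACT12. H2AX-GFP replicate 1 had a region of 1363 bases there, at percentile 33.3. The lower end of ACT12 was covered in every library, by 356 to 1200 bases, within chr3:17125761-17128785.

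**Figure D4:**
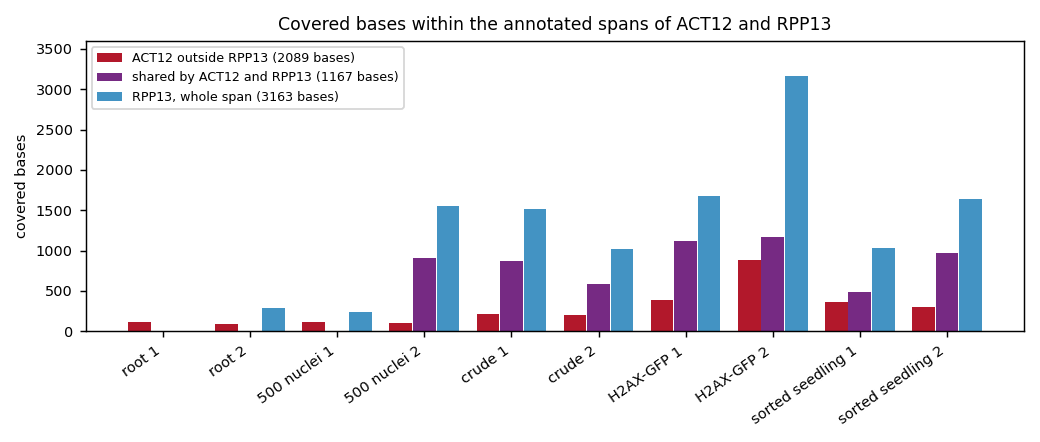
Covered bases (y axis) in each library (x axis) within the ACT12 span outside RPP13, within the stretch both annotated genes share, and within the whole RPP13 span. The shared stretch is at 0 in both root libraries and in 500-nuclei replicate 1, and RPP13 is covered along all 3163 bases in H2AX-GFP replicate 2.

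ACT12 had the largest SD of the 8 genes over the 10 libraries, 472.6, against 468.4 for ACT7. Without H2AX-GFP replicate 2 its SD was 177.2 and that of ACT7 478.2, so the order turned. The 3 tested genes farther than 5000 bp away with the most similar values over the 10 libraries were AT4G19140 (Pearson r = 0.993), CYCA1;1, a mitotic cyclin (0.987), and AT1G31790 (0.98). CYCA1;1 had 548 and 1064 covered bases in H2AX-GFP seedlings, 414 to 471 with 500 nuclei, and 556 and 548 in sorted seedlings. All 3 were highest in H2AX-GFP replicate 2, as was ACT12, and without that library r was 0.969, 0.902 and 0.843 over 9 libraries. The points share libraries and their covered length, and the genes were picked for this likeness, so r is a description.

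Of the other actin loci, ACT9, annotated as an actin, had 0 covered bases in all 10 libraries. The related loci AT2G42100 and AT2G42170 had 0 to 163 and 399 to 604 covered bases. Neither was called in any comparison.

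Proteins that bind actin also come in vegetative and pollen forms. Profilins hold monomers ready for filament growth. The vegetative PRF1 had 1993 and 957 covered bases in roots and 681 and 1581 in sorted seedlings. PRF2 had 820 and 0 in roots and 492 and 1200 in sorted seedlings. PRF3 had 0 in both root libraries and 325 and 200 in sorted seedlings. The libraries of 1 group thus differed as much as the groups for PRF1 and PRF2, and PRF3 was at 0 in roots and covered in all 8 seedling libraries (limma adjusted p = 0.35 against sorted seedlings).

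The pollen profilins were covered in all 10 libraries. PRF4 had 1578 and 581 covered bases in roots and 1284 and 1183 in sorted seedlings, and PRF5 had 911 and 642 in roots and 362 and 452 in sorted seedlings. In the table, PRF4 and PRF2 (AT4G29340 and AT4G29350) and PRF5 and PRF1 (AT2G19770 and AT2G19760) have consecutive locus tags. PRF5 had 1566 and 988 covered bases in H2AX-GFP seedlings, both above the 362 and 452 of the wild type (difference 870, SE 222.8, limma unadjusted p = 0.00529, adjusted p = 0.892), which was not called.

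Actin-depolymerizing factors sever filaments. The vegetative ADF1 had 1558 and 1274 covered bases in roots and 1392 and 1280 in sorted seedlings, and ADF2 had 693 and 1167 in roots and 1130 and 1378 in sorted seedlings. ADF3 had 1446 and 307 in roots and 1474 and 1925 in sorted seedlings, and ADF4 had 579 and 307 in roots and 661 and 725 in sorted seedlings. ADF3 and ADF4 thus had their low root value in the same library, root replicate 2. Of the pollen forms, ADF7 had 327 and 0 covered bases in roots and 815 and 290 in sorted seedlings, and ADF10 had 465 and 388 in roots and 516 and 485 in sorted seedlings. Crude replicate 1 was the lowest library for ADF1, at 311 bases, and the second highest for ADF7, at 1130.

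As lists, 7 vegetative partner genes had a median of 970.3 covered bases over the 10 libraries and 9 pollen partner genes 413.7, against 603.2 over all genes. The ARP2/3 complex, which branches filaments, had a median of 829.6 over 9 genes, and the other actin-related proteins, most of which belong to chromatin remodellers, 863.0 over 6. Myosins XI, the motors of organelle streaming, had 1133.8 over 7 genes. Formins, which nucleate filaments, had 427.4 over 8, and a list of villins and fimbrins, which bundle filaments, with other filament-binding proteins, 989.1 over 13. The vegetative actin genes, with a median of 1964.9, stood above each of these medians, and the reproductive ones, with 554.9, above those of the formins and pollen partners.

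Of 62 listed genes of the actin cytoskeleton other than the 8, 58 were tested and 0 were called in any of the 5 comparisons (limma). Against sorted seedlings, the median difference in roots was -84 bases over these 58 and -83 over all tested genes. VLN2, a villin, had 0 covered bases in both root libraries and 674 and 664 in sorted seedlings (difference -669, SE 177.6, limma adjusted p = 0.185). VLN4, another villin, which acts in root hairs, had 1367 and 1212 in roots and 1015 and 322 in sorted seedlings (limma adjusted p = 0.576). Both were chosen for mention after their values were seen.

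**Figure D5:**
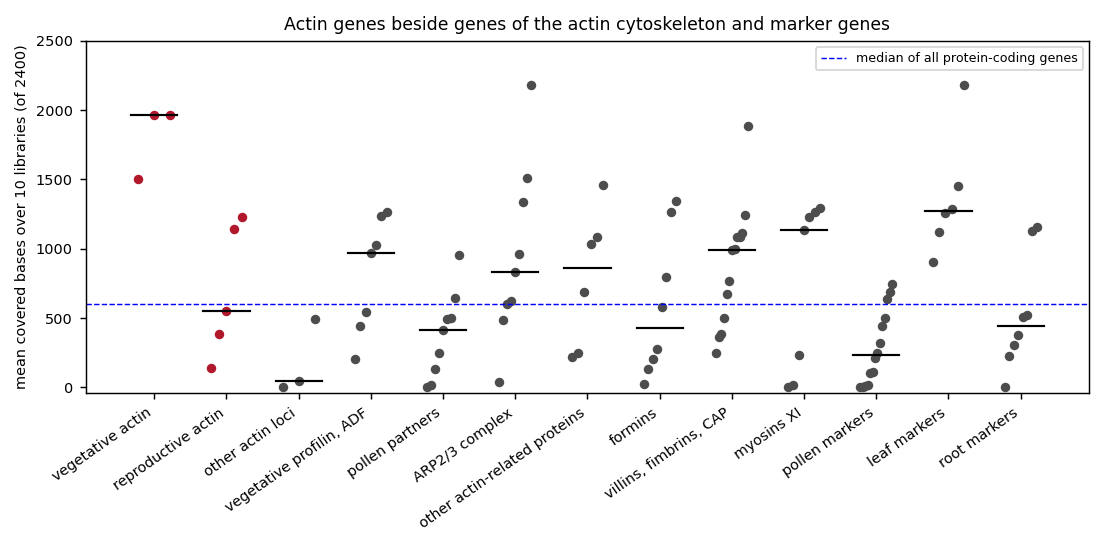
Mean covered bases over the 10 libraries (y axis, of 2400) for each gene of the actin family (red), of lists of actin-binding genes and of marker lists (grey). Bars are list medians and the dashed line is the median of all protein-coding genes, 603.2; the vegetative actin genes sit at 1505.5 to 1966.2.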

How the data were processed

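ATAC-seq libraries of 10 samples (5 groups of 2) came with a list of called regions each. The other 4 of 14 samples were not analysed here. The authors called regions per library and deposited chromosome, start, end and a score; the lists carry no header, and no source used here names the caller or defines the score. Positions are on TAIR10, per the submitters' processing notes. The lists held 22138 to 29309 regions covering 13.78 to 24.61 Mb; with no read counts the depth is unknown, and the 2 libraries per group limit the precision. The score, as the authors deposited it, ranked regions within a library.

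Genes came from a RefSeq table of TAIR10.1, used by position. In 50 of 50 pairs of library and chromosome, gene ends were covered more often (29.86% to 51.44%) than positions 5000 bp away (11.61% to 23.74%). All 98 listed loci matched by locus tag. No genome, promoter or protein sequence was used here, so no sequence is printed.

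Covered bases were compared with limma 3.58.1 (lmFit, eBayes with trend and robust) in R 4.3.3 over all 10 libraries and the 23893 genes covered in at least 2 libraries, with Benjamini-Hochberg adjustment and a threshold of 0.05. The comparisons share the sorted seedling libraries. The genes named were the 8 actin genes, neighbours with overlapping windows, PRF1 to PRF5, ADF1 to ADF4, ADF7 and ADF10, called list genes, and the 3 genes most correlated with the actin gene of largest SD. The members and lists were chosen with earlier results of these data known.

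On simulated data of 23893 genes, recovery depended on the genes changed. In root against sorted seedlings, genes of mean 800 to 1600 bases changed by 500 or 1000 bases were called in 0% and 0% of cases. In a second choice, made after that result, genes of mean 1100 to 1300 bases were called in 0% and 16.9%, and genes of mean 1600 to 2000 that lost all coverage in 60%. Against the 4 seedling groups these shares were 0% and 10%, then 0%, 30.8% and 74.3%. Changes of up to 1000 bases thus mostly went uncalled.

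Replicate numbers were checked as pairs. The correlation of deviations between same-numbered libraries was -0.22 to 0.51 over 10 pairs of groups. It was 0.51 for 500 nuclei with sorted seedlings, 0.39 for H2AX-GFP with sorted seedlings and 0.43 for 500 nuclei with H2AX-GFP, so same-numbered libraries of these groups deviated together, but -0.07 and -0.02 for roots and crude nuclei with sorted seedlings. No label ties a number to a shared batch, so the main fits carry no block. Alternatives were other windows, scalings, region thresholds, filters and fits, the replicate number as a block, and leaving out each library in turn; each end alone and the gene span were chosen after the data were seen. The other tools were Python 3.11.15, numpy 2.4.6, pandas 2.3.3 and matplotlib 3.10.9.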

Additional observations from a re-analysis of the deposited data

How the results depend on the processing

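No actin gene was called in any of the 5 comparisons under any alternative, except ACT12 in H2AX-GFP against wild type without H2AX-GFP replicate 1. That fit leaves a single H2AX-GFP library, which is assumed to vary like the other groups. Against sorted seedlings, the count of all genes called in roots was 311 with the 500 bp window, 47 with the 2000 bp window, 279 after quantile normalization, 46 after division by covered length, 476 with the better-scoring 50% of regions, 277 without the filter, 254 without trend and robust, 252 and 317 with the lower and the higher end alone, and 0 to 13 with a library left out, in place of 163. Against the 4 seedling groups it was 1075, 835 and 768 after quantile normalization, after division and with the better-scoring 50%, and 0 to 520 with a library left out, in place of 481. Without root replicate 1 it was 0, and without root replicate 2 126. The count was 13 for 500 nuclei without the filter, 37 and 22 for crude nuclei with the better-scoring 50% and without the filter, and 29, 32, 4, 1 and 19 for H2AX-GFP with the better-scoring 50%, without the filter, with the lower end alone, with the higher end alone and within the gene span, in place of 0 each. For H2AX-GFP it was 0 to 184 with a library left out. The causes were not tested.

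The replicate number as a block (replicate block) gave 78 calls in roots against sorted seedlings, in place of 163, and changed no call of an actin gene in any comparison. With the block, 0 genes were called for 500 nuclei and for H2AX-GFP, as without it (limma, 1929 and 804 with an unadjusted p under 0.05). Of the other listed cytoskeleton genes, 1 was called against the 4 seedling groups after quantile normalization (VLN4) and 1 with the better-scoring 50% of regions (AT2G42170). The locus AT2G04750 was called there, and in H2AX-GFP against wild type, without H2AX-GFP replicate 1, so the range over libraries left out was 0 to 1 in both. The number of libraries in which every vegetative gene lay above every reproductive gene was 0 with the lower end alone, 3 with the better-scoring 50% and 1 within the gene span, in place of 7.

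The sign of a difference was not firm for these genes. Of 623 differences of actin genes under alternatives, 77 had the opposite sign from the one reported, none of them called. With the 500 bp window the differences that turned were 132.0 for ACT12 (crude against sorted nuclei). With the 2000 bp window the differences that turned were -456.0 for ACT2 and -480.0 for ACT12 (roots against sorted seedlings), -48.9 for ACT2 and 46.9 for ACT3 (roots against the 4 seedling groups), -164.0 for ACT3 (crude against sorted nuclei) and -206.0 for ACT2 (H2AX-GFP against wild type). After quantile normalization the differences that turned were 76.1 for ACT3 and 118.9 for ACT11 (roots against sorted seedlings), 107.6 for ACT2, 25.6 for ACT1, 141.2 for ACT3 and 187.1 for ACT11 (500 against 50000 nuclei), 86.9 for ACT2, 11.6 for ACT1 and 181.2 for ACT12 (crude against sorted nuclei) and -92.1 for ACT2 and -26.7 for ACT3 (H2AX-GFP against wild type). After division by covered length the differences that turned were 230.1 for ACT8, 30.5 for ACT3 and 156.0 for ACT11 (roots against sorted seedlings), 33.9 for ACT12 (roots against the 4 seedling groups), 512.8 for ACT2, 317.2 for ACT8, 85.2 for ACT3 and 297.4 for ACT11 (500 against 50000 nuclei), 444.0 for ACT2, 21.9 for ACT7 and 240.6 for ACT12 (crude against sorted nuclei) and -191.0 for ACT2, -51.4 for ACT3 and -39.3 for ACT11 (H2AX-GFP against wild type). With the better-scoring 50% of regions the differences that turned were -528.0 for ACT12 (roots against sorted seedlings), 265.5 for ACT1 and -28.5 for ACT11 (crude against sorted nuclei) and 261.5 for ACT1 (H2AX-GFP against wild type). With the lower end alone the differences that turned were 44.6 for ACT7 and 191.6 for ACT12 (roots against the 4 seedling groups). With the higher end alone the differences that turned were 5.0 for ACT11 (roots against sorted seedlings) and 286.0 for ACT12 (crude against sorted nuclei). Within the gene span the differences that turned were 605.0 for ACT8 and -958.0 for ACT12 (roots against sorted seedlings), 8.4 for ACT7 (roots against the 4 seedling groups), 40.0 for ACT8 (500 against 50000 nuclei), -54.5 for ACT3 and -34.0 for ACT11 (crude against sorted nuclei) and -123.5 for ACT2, 256.5 for ACT8 and -29.0 for ACT3 (H2AX-GFP against wild type). For roots against sorted seedlings, leaving out each library gave -1353.0 to 6.0 for ACT7, -249.0 to 14.0 for ACT8, -156.5 to 189.5 for ACT4, -182.0 to 137.0 for ACT11 and -26.5 to 63.5 for ACT12. For roots against the 4 seedling groups, leaving out each library gave -939.5 to 419.5 for ACT7, -227.9 to 88.1 for ACT1, -81.6 to 4.4 for ACT3, -129.1 to 216.9 for ACT4, -223.4 to 95.6 for ACT11 and -201.9 to 103.6 for ACT12. For crude against sorted nuclei, leaving out each library gave -265.0 to 44.0 for ACT1, -1.5 to 77.5 for ACT3, -156.5 to 224.5 for ACT4 and -156.0 to 25.0 for ACT12. For H2AX-GFP against wild type, leaving out each library gave -16.0 to 23.0 for ACT2, -210.5 to 131.5 for ACT8, -170.0 to 36.0 for ACT1, -20.5 to 30.5 for ACT3, -156.5 to 182.5 for ACT4 and -41.0 to 227.0 for ACT11. No depth is known for these lists, so what depth limits was not measured.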

Other observations

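Some genes that work with actin had values in single libraries far from the rest. AT2G04750, listed among the fimbrins, had 318 and 1740 covered bases in H2AX-GFP seedlings, 269 and 246 in sorted seedlings, and at most 263 in the other 6 libraries. H2AX-GFP replicate 2, the library in which ACT12 reached 2400 bases, held that highest value. ARP6, a subunit of a chromatin remodeller that deposits the histone variant H2A.Z, had 1817 and 2034 covered bases in H2AX-GFP seedlings and 1641 and 567 in sorted seedlings (limma unadjusted p = 0.0401, adjusted p = 1), which was not called.

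AT1G49245, which lies 1 bp from ACT8, had 1372 and 1458 covered bases in roots, 576 and 905 with 500 nuclei, 630 and 595 in crude nuclei, 1048 and 996 in H2AX-GFP seedlings, and 1065 and 999 in sorted seedlings. Both root libraries lay above all 8 seedling libraries, a separation whose share among all genes was not counted. The difference from the 4 groups, 563.2 bases (SE 120.0), was not called (limma unadjusted p = 0.00183, adjusted p = 0.067). These genes were chosen for mention after their values were seen.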
